A study of Mus musculus with 6 samples.

Results

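The genes described here encode the proteins of the mitochondrial ribosome, and they were followed in 2T3 pre-osteoblasts kept for 3 days in static culture or in simulated microgravity. Members were all probe sets that the platform's probe table gives to a single symbol beginning with Mrpl or Mrps and a digit. There were 156 of them, from 76 genes, among 45101 probe sets on the array, 34945 of which had 1 symbol. The symbols comprise 47 large subunit genes (Mrpl) and 29 small subunit genes (Mrps). The rule itself uses only the symbol. A further 4 probe sets carry an Mrpl or Mrps symbol together with another gene's and are not counted.

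2T3 is a clonal line from mouse calvaria, immortalised with a viral T antigen, so all samples come from 1 clone, used at passages 8 to 10. Simulated microgravity was produced with the rotating wall vessel, a fluid-filled chamber that turns about a horizontal axis and keeps cells suspended. There were 3 static and 3 rotated samples, each on 1 Affymetrix array of total RNA, and no treatment or genotype differed between the groups beyond the culture condition. Whether the 3 samples of a group were grown separately is not in the labels; a p-value here speaks only of the variation among these 6 samples, part or all of which may be technical. Groups follow the titles, in which R was read as rotated. For static 2 and static 3 the source label disagrees with the title and gives simulated microgravity.

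The mitochondrial ribosome translates the few messages of mitochondrial DNA, all of which code for subunits of the respiratory chain and ATP synthase. Its proteins are encoded in the nucleus, made in the cytosol and imported, while its RNAs come from mitochondrial DNA. Some of its proteins descend from those of bacterial ribosomes and others were added in mitochondria. Osteoblasts draw on oxidative phosphorylation as they mature, which depends on this ribosome.

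Several facts of the arrays bear on the values below. Median signals as deposited ran from 70.0 to 130.1, with the highest on static 1 and at most 88.8 elsewhere. The 10th percentile of the deposited signal was 22.1 on static 1 and 4.5 to 7.2 on the other arrays. The 3' to 5' ratio of actin was 3.21 on the array of rotated 1 and 1.29 to 1.57 elsewhere, while that of GAPDH lay between 0.748 and 0.875 on all 6. Of 10 osteoblast markers, 7 were on the table and all 7 passed the filter on dim probe sets, with Col1a1 at a mean log2 level of 12.9 and Sp7 at 7.81, while Alpl (6.42) and Ibsp (6.37) lay just above the threshold of 5.96. Bglap, Runx2 and Spp1 are among the markers not analysed here. Of 13 measured markers of other cells 7 passed, led by the cartilage collagen gene Col2a1 (10.0). The others that passed were Tubb3 (8.19), Csf1r (7.87), Epcam (7.47), Cd68 (6.33), Acan (6.07) and Acta1 (6.06). Ptprc, Pecam1, Cdh5, Cdh1, Adipoq and Myog did not pass.

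Some promoters of the members hold motifs that the choice by symbol did not use, and a few are printed for that reason. NRF1 and GABP, an ETS family factor, are known activators of nuclear genes for mitochondrial proteins. RefSeq promoters of build GRCm38.p6 (250 bases before to 50 after a start, 300 in all) were matched for 67 of 76 genes, with 73 promoters. The ETS core CCGGAAG, searched on both strands, was present in 34.2% of member promoters, in 16.5% of those of all tested genes and in 8.86% of all promoters. The YY1 letters AAGATGGCG were present in 11% against 2.78% and 1.40%, and the NRF1 palindrome, spelled in capitals in the 3 sequences that follow, in 4.11% against 1.92% and 0.971%. The SP1 letters GGGCGG stood at 53.4% of member promoters and 60.4% of those of tested genes, the CRE letters TGACGTCA at 2.74% and 2.96%, and the TATA letters TATAAA at 6.85% and 7.68%. The 3 NRF1 matches are shown with 10 bases on each side and the palindrome in capitals, at chr3:94443298-94443327 (plus strand), chr13:14613105-14613134 (minus) and chr16:84735350-84735379 (minus):
Mrpl9: aggcgcagctGCGCATGCGCggggtccttc
Mrpl32: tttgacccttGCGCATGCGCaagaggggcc
Mrpl39: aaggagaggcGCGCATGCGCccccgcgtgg
The upstream 250 bases of the member genes with the smallest p by their brightest probe set follow, at chr16:92058086-92058335 and chr14:54426659-54426908 (both plus strand), with matches to the SP1 letters in capitals in Mrps6 and the match to the ETS core, on the reverse strand, in capitals in Mrpl52:
Mrps6: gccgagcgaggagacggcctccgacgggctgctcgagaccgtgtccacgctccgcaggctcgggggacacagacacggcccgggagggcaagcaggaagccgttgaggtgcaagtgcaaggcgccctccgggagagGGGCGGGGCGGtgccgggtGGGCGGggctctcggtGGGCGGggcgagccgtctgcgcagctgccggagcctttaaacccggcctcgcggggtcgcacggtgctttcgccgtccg
Mrpl52: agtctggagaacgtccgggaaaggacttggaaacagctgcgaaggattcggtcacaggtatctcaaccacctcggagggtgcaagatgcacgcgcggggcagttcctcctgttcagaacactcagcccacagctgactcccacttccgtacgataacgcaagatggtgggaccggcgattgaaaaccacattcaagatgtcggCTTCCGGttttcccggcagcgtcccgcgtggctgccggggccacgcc
A match is a description of letters, not evidence of binding. The 25 members with an ETS core had a median log2 difference of 0.058 between rotated and static samples, and the 42 without one 0.10.

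Many members also start head to head with another gene. Within 1000 bases upstream, a protein-coding gene started on the opposite strand for 23 of the 67 members (34.3%), against 12.9% of 9765 tested protein-coding genes. Mrps11 and Mrpl46 face each other, 1 from each subunit, with 42 bases from the start of Mrpl46 to that of Mrps11 at chr7:78783089-78783130. The stretch is shown on the strand of Mrps11 with the SP1 letters in capitals:
Mrps11 and Mrpl46: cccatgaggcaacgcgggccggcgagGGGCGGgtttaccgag
Their log2 differences were 0.03 for Mrps11 and 0.22 for Mrpl46. Of the 21 distinct pairs with a measured partner, 11 had the same sign. Among the partners, Fau, which encodes a ubiquitin-like fusion with a cytosolic ribosomal protein, stood at -0.56 ± 0.25 (SE) beside Mrpl49 at -0.13. Mrps12 shares its upstream region with Sars2, the mitochondrial seryl-tRNA synthetase gene (0.12 and -0.29), and Mrpl43 with Twnk, the mitochondrial DNA helicase gene (-0.08 and 0.23).

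The comparison asked how these transcripts differ after 3 days in the rotating vessel. As a group the mitochondrial ribosomal protein genes stood at nearly the same level on all 6 arrays. The mean log2 level over the 76 genes was 10.58, 10.55 and 10.47 in static 1, static 2 and static 3 and 10.62, 10.63 and 10.58 in rotated 1, rotated 2 and rotated 3. Rotated 1 and rotated 2 lay above all 3 static samples, by less than the static samples differed among themselves, and rotated 3 was level with static 1. In gene terms 44 stood higher and 32 lower in the rotated samples, with a median log2 difference of 0.06, next to 53.3% higher and a median of 0.03 over 12554 tested genes. In bulk RNA, a change in transcript per cell and a change in the share of expressing cells cannot be told apart. The values are log2 of the deposited signal plus an offset of 16.6, which compresses the differences of dim probe sets.

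No member passed limma's test at an adjusted p under 0.05: 0 of 144 tested probe sets were called, and 0% of all 27022. The smallest adjusted p among members was 0.593. At an unadjusted p under 0.05, 6 member probe sets (4.17%) stood higher and 0 lower, against 4.34% of all tested probe sets higher and 3.90% lower. The 6 belong to Mrps10, Mrps6, Mrpl52, Mrpl15, Mrpl13 and Mrpl11, 1 each. Groups did not overlap for 18 member probe sets with the rotated samples above and for 8 below, which is 12.5% and 5.56%, while over all tested probe sets 7.83% lay above and 7.27% below. Part of these counts rests on the filter. A static mean under its threshold, with passage through the rotated samples alone, was found for 6 member probe sets (4.17%), against 0 the other way. Over all tested probe sets these shares were 3.60% and 3.55%. The member probe sets that passed in this way include 1 of the 6 with an unadjusted p under 0.05 and 2 of the 18 without overlap. With the replicate number as a block, 0 member probe sets passed the adjusted test. The block gave 13 higher and 2 lower at an unadjusted p under 0.05, against 7.29% higher and 7.35% lower of all tested probe sets, of which 0.0074% passed the adjusted test. With array weights 20 stood higher and 1 lower at that unadjusted p, against 10.1% and 8.91%, and 0.0814% of all tested probe sets but 0 members passed the adjusted test. By gene, 8 of 76 (10.5%) lay wholly above the static range and 4 (5.26%) wholly below, against 8.30% and 7.11% of all tested genes. By sign alone 91 of the 144 member probe sets (63.2%) stood higher, against 52.6% of all tested probe sets.

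The precision allows a bound on most members. For 64 of the 76 genes the 95% interval of the difference lay within 2-fold in either direction, which held for 54.1% of all tested genes; by probe set it held for 100 of 144 members and for 44.7% of all. The members were brighter, with a mean log2 level of 10.6 against 9.15 for all tested genes. The exceptions include Mrps6, Mrpl52, Mrpl39, Mrps9 and Mrpl44 with upper bounds of 1.22, 1.29, 1.28, 1.31 and 1.12, and Mrpl54, Mrps27, Mrpl14 and Mrpl50 with lower bounds of -1.32, -1.14, -1.05 and -1.05.

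**Figure D1:**
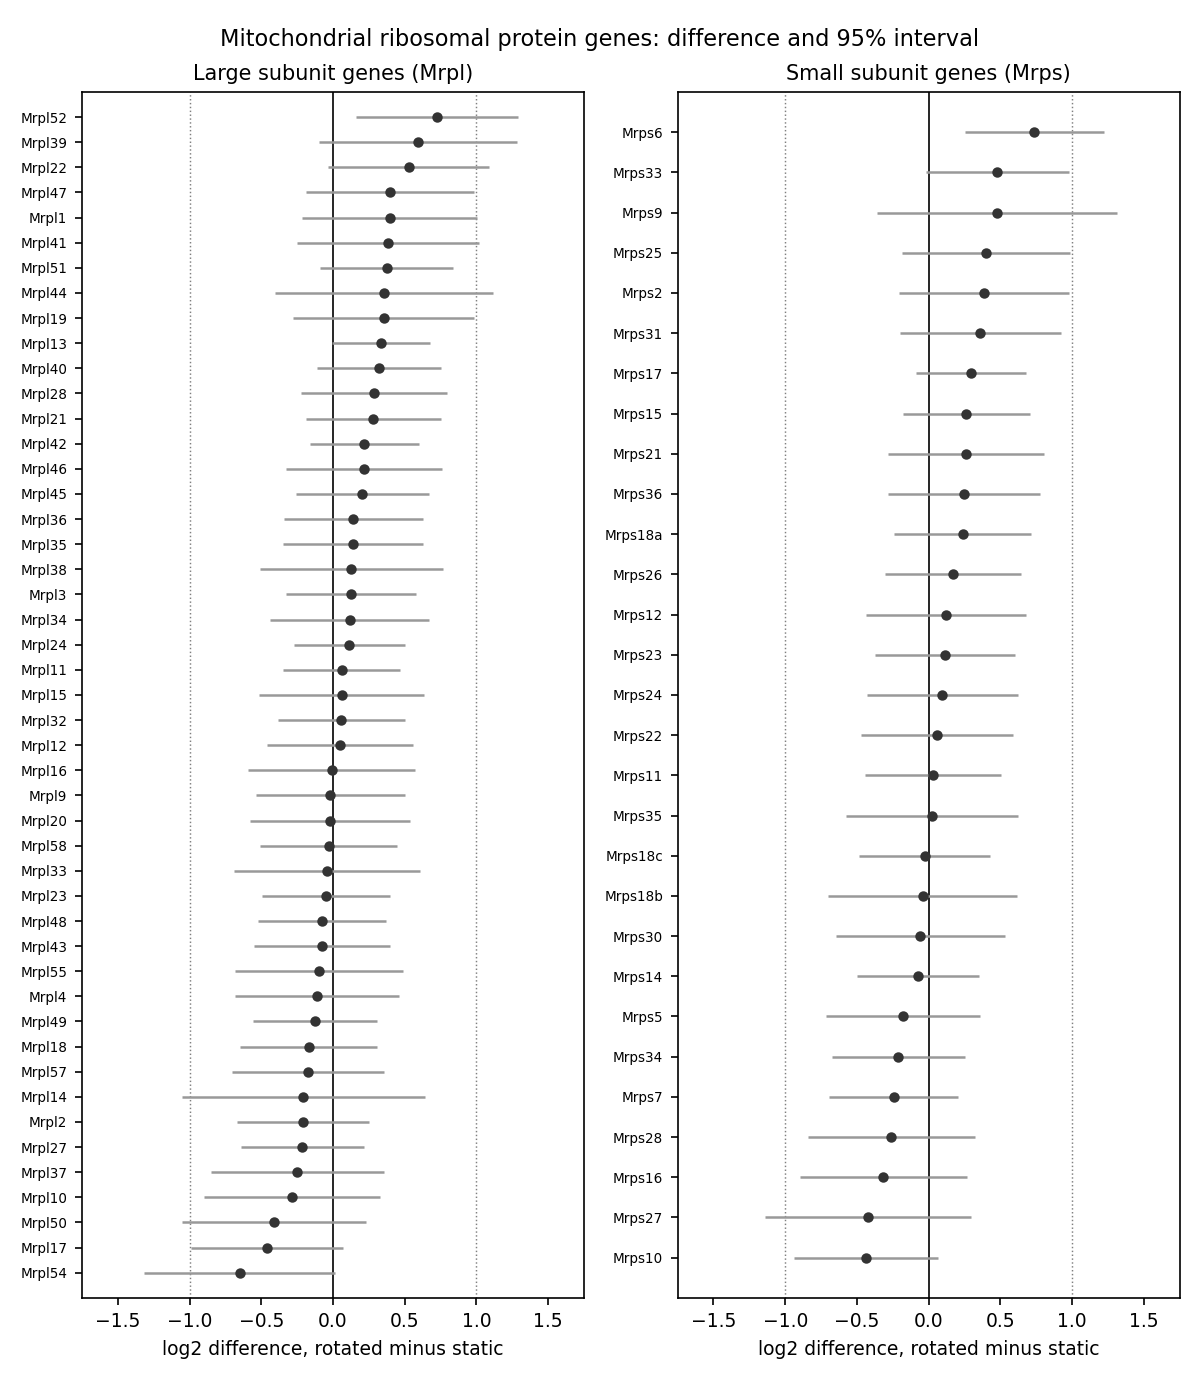
Log2 difference, rotated minus static, of each of the 76 member genes (points) with its 95% interval from limma (lines, n = 3 arrays per group), large subunit genes on the left and small subunit genes on the right; dotted lines mark a 2-fold difference. Points run from -0.65 (Mrpl54) to 0.74 (Mrps6), and the intervals of Mrps6 and Mrpl52 do not reach 0.

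The medians of the subunits were close to each other. The large subunit genes had 26 higher and 21 lower with a median of 0.06, and the small subunit genes 18 higher and 11 lower with a median of 0.10. The mean log2 level of the large subunit genes minus that of the small subunit genes was 0.35, 0.31 and 0.30 in the static samples and 0.31, 0.30 and 0.30 in the rotated samples, so its static range contains the rotated values. The 46 members with a bacterial counterpart had a median difference of 0.06 and the 30 found only in mitochondria 0.12, with 26 and 18 higher. The symbols do not follow the structure in every case: Mrps18a and Mrps30 are components of the large subunit in structures of the mammalian ribosome, and Mrps36 has since been described as a part of the alpha-ketoglutarate dehydrogenase complex. Their log2 differences were 0.24 ± 0.21, -0.06 ± 0.26 and 0.25 ± 0.24 (SE).

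Among small subunit genes the largest positive difference was that of Mrps6, related to a bacterial protein of the subunit's platform. Its log2 level was 10.95, 11.57 and 11.31 in static 1, static 2 and static 3 and 12.08, 12.16 and 11.81 in the rotated samples in the same order. Every rotated sample thus lay above every static one. The difference was 0.74 ± 0.22 (SE), or 1.67-fold, with an adjusted p in limma of 0.593. Leaving out rotated 1 it was 0.70 ± 0.24. The other probe set of Mrps6 stood at 0.30 ± 0.22 with overlapping groups. In RefSeq the span of Mrps6 overlaps that of Slc5a3, a myo-inositol transporter gene that responds to osmotic stress. Slc5a3 stood at 0.64 ± 0.26 with an unadjusted p of 0.0361 in the same fit; whether the probes tell the overlapping transcripts apart was not tested.

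Mrps33, a mitochondrial addition to the small subunit, measured 10.86, 11.29 and 11.16 in the static samples and 11.75, 11.77 and 11.23 in the rotated ones, where rotated 3 falls among the static values (0.48 ± 0.22). Mrps17, of bacterial descent, was 11.92, 11.80 and 11.75 in static and 12.16, 12.21 and 11.98 in rotated samples, without overlap (0.30 ± 0.17). Mrps25 stood at 0.40 ± 0.26 and Mrps9 at 0.48 ± 0.37. For Mrps25 static 1 read 9.41, below static 2 (10.29) and static 3 (10.06), and its smallest difference under the alternatives was 0.13. For Mrps9 rotated 1 read 10.24 and rotated 3 read 8.72, on either side of the static samples, which ran from 8.89 to 9.37. Adjusted p in limma lay between 0.609 and 0.705 for these 4 genes, each by its brightest probe set. The other tested probe sets stood at 0.20 and 0.10 for Mrps25 and at 0.14, 0.08 and -0.0054 for Mrps9.

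In the other direction Mrps10, a protein of the small subunit's head, measured 10.80, 10.31 and 10.42 in static and 9.87, 10.20 and 10.16 in rotated samples, which lay entirely below (-0.44 ± 0.22). Its second probe set went the opposite way and is described further on. Mrps7, also of the head, read 10.31, 10.15 and 10.11 against 9.88, 9.96 and 9.99, again without overlap and with a difference of -0.25 ± 0.20. Mrps27, an RNA-binding pentatricopeptide repeat protein, stood at -0.42 ± 0.32 and Mrps16 at -0.32 ± 0.26. For Mrps16, defects of which impair mitochondrial translation in patients, rotated 1 was at 10.64 and the other rotated samples at 11.58 and 11.29, within or close to the static range of 11.37 to 11.70. Mrps12, which lies at the decoding centre and whose bacterial relative binds streptomycin, differed by 0.12 ± 0.25. Mrps22, another disease gene of this subunit, stood at 0.06 ± 0.24. Mrps18b and Mrps18c, which with Mrps18a descend from 1 bacterial protein, differed by -0.04 ± 0.29 and -0.03 ± 0.20. For these last 4 genes, and for Mrps30, the sign changed under some alternatives. Mrps34 stood at -0.21 ± 0.21, Mrps28 at -0.26 ± 0.26 and Mrps5 at -0.18 ± 0.24. Without rotated 1 the differences were 0.13 for Mrps9, -0.20 for Mrps27, -0.05 for Mrps16, -0.11 for Mrps34 and -0.15 for Mrps28, each over 1.5 times smaller.

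Among large subunit genes Mrpl52, a mitochondrial addition, had the largest positive difference. Its level was 11.89, 11.42 and 11.57 in the static samples and 12.86, 12.001 and 12.19 in rotated 1, rotated 2 and rotated 3. The groups did not overlap, and rotated 1 was the highest. The difference was 0.73 ± 0.25 (SE), or 1.65-fold, with an adjusted p in limma of 0.593, and it was 0.47 ± 0.20 without rotated 1. Its other 3 tested probe sets stood at 0.31, 0.42 and 0.57, all with overlapping groups, and the last was dim (static mean 6.16). Mrpl39 differed by 0.59 ± 0.31. Rotated 1 read 12.94, while rotated 2 (12.001) and rotated 3 (11.85) lay among the static samples (11.35 to 12.07). Without rotated 1 the difference was 0.26 ± 0.24. The other tested probe set of Mrpl39 stood at 0.14 ± 0.26, and at -0.11 ± 0.21 without rotated 1.

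Mrpl13 gave one of the tightest separations. The static samples read 12.74, 12.56 and 12.59 and the rotated samples 12.998, 12.90 and 12.99, with a difference of 0.33 ± 0.15 that was 0.32 ± 0.16 without rotated 1. All 4 of its tested probe sets stood higher in the rotated samples. Mrpl22, whose bacterial relative lines the exit tunnel of the ribosome, measured 10.10, 9.93 and 9.92 against 10.98, 10.21 and 10.34 (0.53 ± 0.25). Mrpl40, at 11.17, 10.95 and 10.98 against 11.56, 11.19 and 11.31, separated by a narrow margin (0.32 ± 0.19). Mrpl51 (0.37 ± 0.21), Mrpl47 (0.40 ± 0.26) and Mrpl1, the protein of the mobile stalk beside the exit site (0.40 ± 0.27), had overlapping groups. The other tested probe set of Mrpl1, about as bright, stood at -0.08 ± 0.25. Without rotated 1 the differences were 0.29 for Mrpl22, 0.22 for Mrpl51, 0.16 for Mrpl47 and 0.16 for Mrpl1, each over 1.5 times smaller. Mrpl45, which sits at the tunnel exit and tethers the ribosome to the inner membrane, stood at 0.20 ± 0.21, with static values of 9.68 to 9.86 and rotated values of 9.93 to 10.11.

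Mrpl54 had the largest negative difference among the 76 genes, each taken by its brightest probe set. It read 10.66, 10.66 and 10.50 in the static samples and 9.28, 10.19 and 10.39 in rotated 1, rotated 2 and rotated 3. The groups did not overlap, but rotated 1 lay far below the rest. The difference was -0.65 ± 0.30 (SE; adjusted p in limma 0.606), and -0.31 ± 0.20 without rotated 1. Mrpl17 showed the same layout, with static values of 11.60 to 11.62 and rotated values of 10.68, 11.24 and 11.53 (-0.46 ± 0.24, and -0.23 ± 0.18 without rotated 1). For Mrpl50 rotated 1 (9.28) was below all others and rotated 2 (10.27) and rotated 3 (10.10) were near the static range of 10.14 to 10.50 (-0.41 ± 0.29). The other tested probe set of Mrpl50 stood at 0.20 ± 0.25. Mrpl27 (-0.21 ± 0.19) and Mrpl2 (-0.21 ± 0.21), both of bacterial descent, had overlapping groups. Of the proteins of the factor-binding stalk, Mrpl10, which anchors it, differed by -0.29 ± 0.27 and Mrpl12, its flexible part, by 0.05 ± 0.23. Mrpl11, at the base of the stalk, differed by 0.06 ± 0.18. Another probe set of Mrpl11 stood at 0.64 ± 0.26, where the groups did not overlap. Mrpl3, near the catalytic centre, differed by 0.12 ± 0.20, Mrpl44, related to ribonuclease III, by 0.36 ± 0.34 and Mrpl41 by 0.38 ± 0.28. Without rotated 1 these were 0.05 for Mrpl3, 0.0023 for Mrpl44 and 0.13 for Mrpl41, and those of Mrpl50, Mrpl10 and Mrpl27 were -0.11, -0.08 and -0.11. Mrpl58, a peptidyl-tRNA hydrolase that rescues stalled ribosomes, stood at -0.03 ± 0.21. The signs of Mrpl12, Mrpl44 and Mrpl58 changed under some alternatives.

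**Figure D2:**
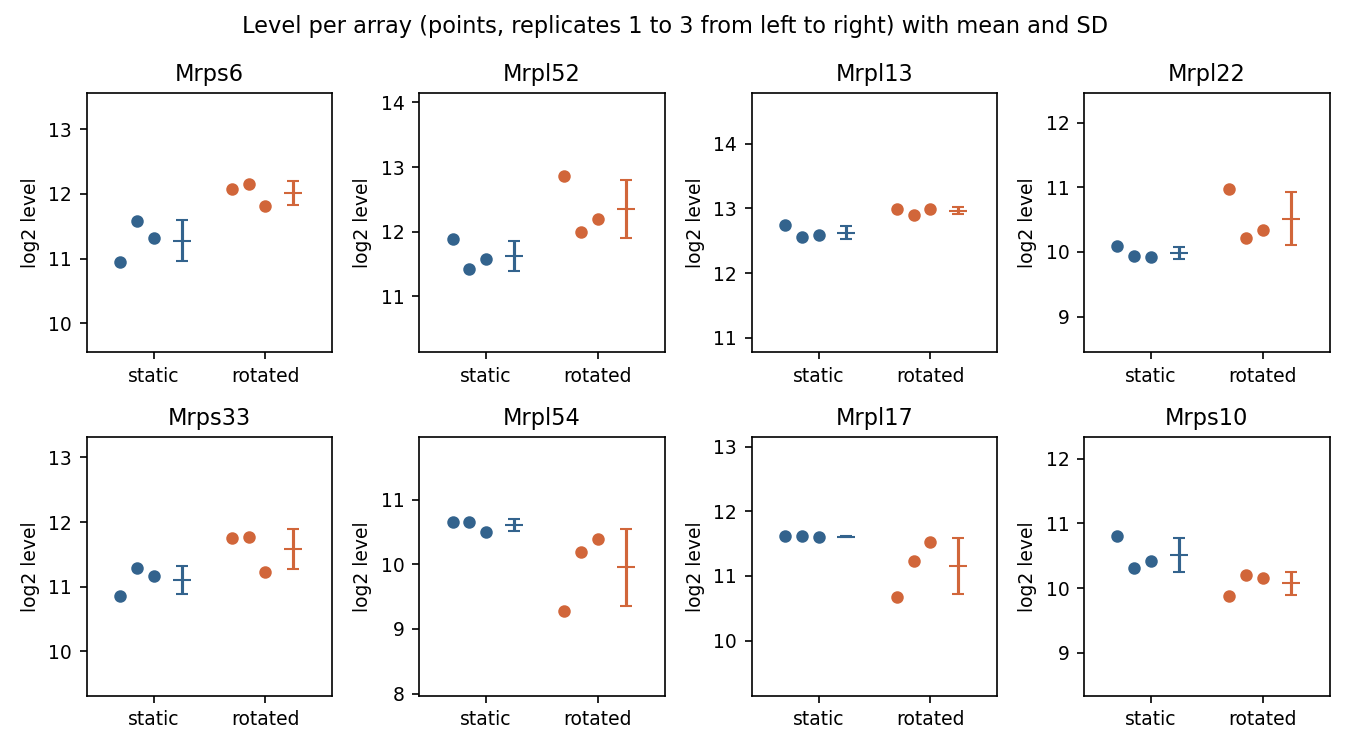
Log2 level of 8 members with the smallest p on each array (points, replicates 1 to 3 from left to right within each group) with the group mean and SD (bars, n = 3); every panel spans 4 log2 units. Rotated 1 is the lowest array for Mrpl54 (9.28), Mrpl17 (10.68) and Mrps10 (9.87). It is the highest for Mrpl52 (12.86), Mrpl22 (10.98) and, by a narrow margin, Mrpl13 (12.9985).

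The differences of single members moved with single arrays, among them rotated 1. Rotated 1, whose actin ratio was 3.21, was the highest or lowest of the 6 arrays for 42 of the 76 genes (55.3%), against 51.6% of all tested genes. It was highest for 22 and lowest for 20, and its mean over the members was 0.08 above the static mean, next to 0.10 for rotated 2 and 0.05 for rotated 3. The median size of a member's deviation from its static mean reached 0.34 on the array of rotated 1, against 0.19 for rotated 2 and 0.18 for rotated 3; over all tested genes the same 3 arrays gave 0.44, 0.27 and 0.25. Without rotated 1 the median size of the difference fell from 0.21 to 0.13 over the members and from 0.26 to 0.21 over all tested genes. Taking the 12 lower and 12 higher members of smallest p, 9 of the former and 6 of the latter had a difference over 1.5 times smaller without rotated 1. They were picked by p in the fit with rotated 1, so the choice itself favours members that this array moved. No like count over all tested genes is given. The part of RNA quality in these values was not tested. Static 3 was the lowest array for 22 of the 76 genes and the highest for 5, against 1665 and 1367 of 12554 tested genes. Static 1 was the highest or lowest for 35.5% of the members and 46% of all tested genes.

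**Figure D3:**
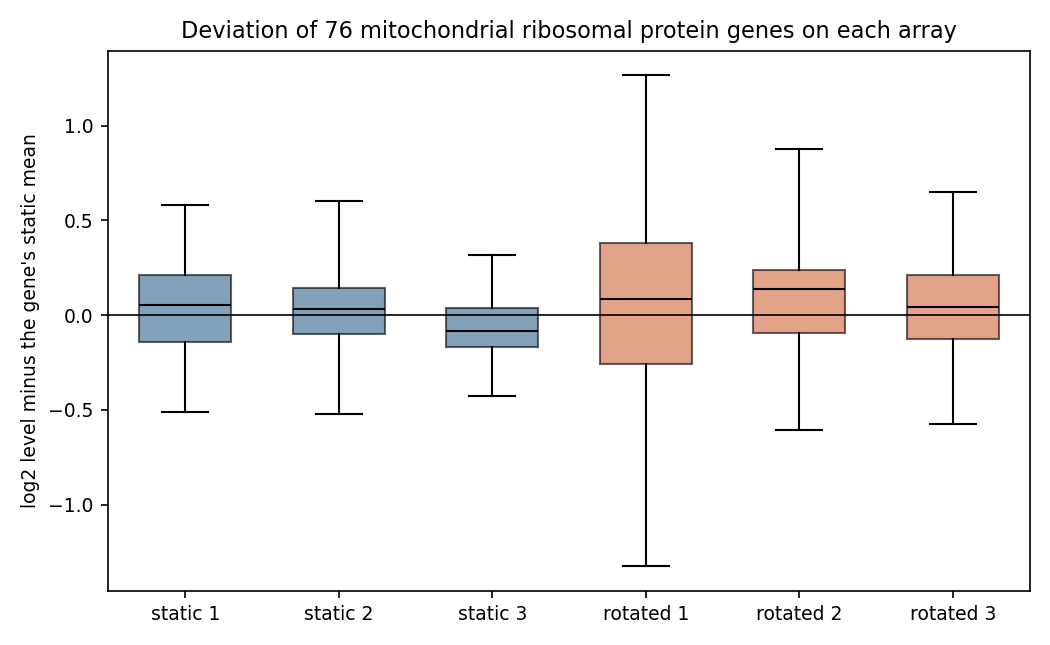
Deviation of the 76 member genes from their own static mean on each array, in log2 units; boxes give quartiles and median, and whiskers the whole range. The box of rotated 1 is the widest (median size of deviation 0.34, against 0.18 and 0.19 for the other rotated arrays), while all medians are near 0.

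For 38 members more than 1 probe set was tested, and for 22 of these genes the probe sets differed in sign. A like count over all tested genes is not given, so 22 of 38 cannot be called many or few for this array. The widest gap was that of Mrps10. Its second probe set read 5.81, 5.25 and 5.98 in the static samples and 8.19, 7.43 and 6.59 in rotated 1, rotated 2 and rotated 3. All rotated samples lay above, with a difference of 1.72 ± 0.47 (SE; adjusted p in limma 0.593), against -0.44 for the brighter probe set. The static mean of 5.68 is under the filter's threshold, so this difference is no exact fold. Mrpl15 had 7 tested probe sets, from -0.14 to 1.29. The highest of them, again a dim one, read 5.60, 6.56 and 6.57 in static and 8.15, 6.83 and 7.62 in rotated samples, while the brightest stood at 0.06 ± 0.26. The dim probe set of Mrpl13 read 5.43, 6.93 and 7.11 against 8.11, 7.75 and 7.22 (1.21 ± 0.48). Mrpl44 had probe sets from -0.81 to 0.40, and Mrpl11 from -0.05 to 0.64. The 3 probe sets of Mrps14 ran from -0.07 to 1.04, the highest with a static mean of 5.69, under the threshold, so that it too is no exact fold. The probe sets differed as well in other members: those of Mrps23 ran from -0.06 to 0.73, the 4 of Mrps5 from -0.22 to 0.52, and the pair for Mrpl57 stood at -0.17 and 0.63. Pairs well above the threshold differed too, at 0.40 and -0.08 for Mrpl1 and -0.41 and 0.20 for Mrpl50. Mrpl28 had bright probe sets at 0.29, 0.12 and -0.29. The pair for Mrps24 stood at 0.10 and at -0.38, the latter without overlap of the groups. Probe sets agreed closely for Mrps15, at 0.25 and 0.26. When all tested probe sets of a gene were averaged, Mrps10 turned to 0.64 and Mrpl44 to -0.089. Not every dim probe set of a member went up: Mrpl17 had dim ones at -0.13 and 0.45.

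**Figure D4:**
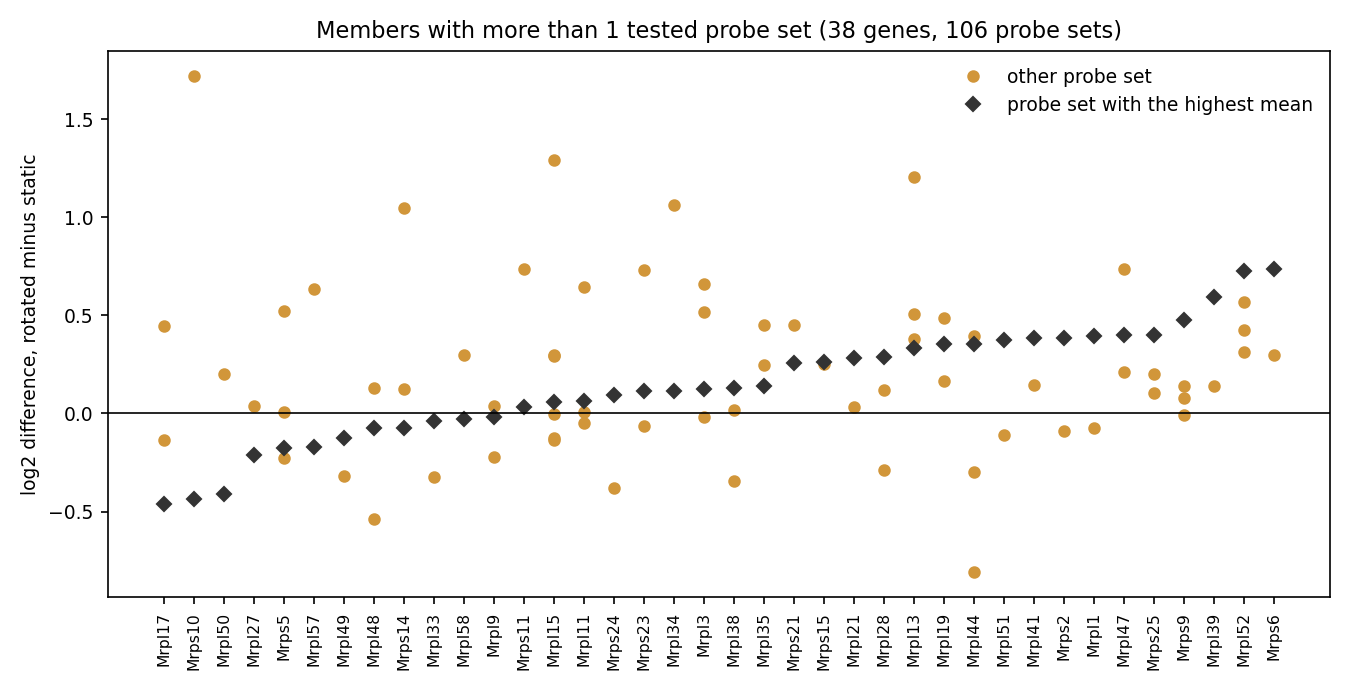
Log2 difference, rotated minus static, of each tested probe set of the 38 members that have more than 1 (106 probe sets), ordered by the probe set with the highest mean (diamonds); circles are the gene's other probe sets. The circle farthest from its diamond is that of Mrps10 (1.72 against -0.44).

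Genes that work with the mitochondrial ribosome were read from lists, counted over the genes of each that passed the filter. Ribosomal proteins that carry other symbols had 2 of 4 higher. Among them Chchd1 read 11.71, 11.87 and 11.48 in static and 12.51, 12.45 and 12.04 in rotated samples, all above the static ones (0.65 ± 0.20, unadjusted p 0.00932), and Ptcd3 differed by 0.46 ± 0.24. Dap3, a GTP-binding protein of the small subunit, stood at -0.06 ± 0.22. Of 24 genes for ribosome assembly, 13 stood higher, with a median of 0.08, and 3 had an unadjusted p under 0.05, all higher, where 4.49% of all tested genes were higher at that p. They were Fastkd2 (1.05 ± 0.37), an RNA-binding protein of the large subunit's assembly, the GTPase gene Noa1 (0.69 ± 0.25) and the helicase gene Dhx30 (0.71 ± 0.29). Noa1 read 8.67, 8.71 and 8.95 in static and 9.78, 9.32 and 9.30 in rotated samples, so the groups did not overlap. Fastkd2 ran from 8.75 to 9.14 in static samples and from 9.44 to 10.93 in rotated ones, with rotated 1 the highest. Without that array the differences were 0.61 for Fastkd2, 0.37 for Dhx30 and 0.27 for Ptcd3, each over 1.5 times smaller, and that of Dap3 was 0.08.

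Translation factors had 8 of 14 higher with a median of 0.17 and 0 at an unadjusted p under 0.05 in limma. The elongation factor gene Tsfm stood at -0.45 ± 0.27, the initiation factor gene Mtif2 at 0.39 ± 0.24, Lrpprc, which stabilises mitochondrial messages, at 0.54 ± 0.32, and Oxa1l, the insertase of the inner membrane, at -0.66 ± 0.35. The mitochondrial tRNA synthetases and charging enzymes split, 11 of 20 higher with a median of 0.01. At an unadjusted p under 0.05 Lars2 (0.59 ± 0.24) and Yars2 (1.01 ± 0.43) stood higher, and Gatb (-1.01 ± 0.31) and Wars2 (-0.94 ± 0.32) lower, where 3.74% of all tested genes were lower at that p. Gatb read 8.32, 8.63 and 8.03 in static and 6.91, 7.65 and 7.39 in rotated samples. Genes of mitochondrial DNA transcription and replication had 11 of 16 higher with a median of 0.15. The polymerase gene Polrmt stood at 0.67 ± 0.27, the single-strand binding protein gene Ssbp1 at 0.52 ± 0.25 and Tfam, the packaging and transcription factor, at -0.14 ± 0.23. Without rotated 1, Yars2 stood at 0.45, Lrpprc at 0.24 and Ssbp1 at 0.25, over 1.5 times smaller, while Tfam stood at -0.23.

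Regulators of mitochondrial biogenesis had 3 of 8 higher with a median of -0.05. Gabpb1, a subunit of the ETS factor GABP, stood at -0.56 ± 0.24 and Nrf1 at -0.37 ± 0.24, while the coactivator gene Ppargc1b stood at 1.14 ± 0.49, with 8.79, 6.90 and 8.34 in the rotated samples and 6.55 to 7.35 in the static ones; without rotated 1 it was 0.75 ± 0.49. Oxidative phosphorylation subunits had 49 of 78 higher with a median of 0.10, and cytosolic ribosomal proteins and their paralogs 26 of 46 with a median of 0.06. At an unadjusted p under 0.05 in limma the oxidative phosphorylation list had 6 higher and 3 lower (7.69% and 3.85%). The cytosolic ribosomal list had 5 higher and 1 lower (10.9% and 2.17%). Of the 76 member genes 2 were higher and 0 lower (2.63% and 0%), and of all tested genes 4.49% and 3.74%. No test was made of any difference between lists, and no gene of these lists passed the adjusted test.

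**Figure D5:**
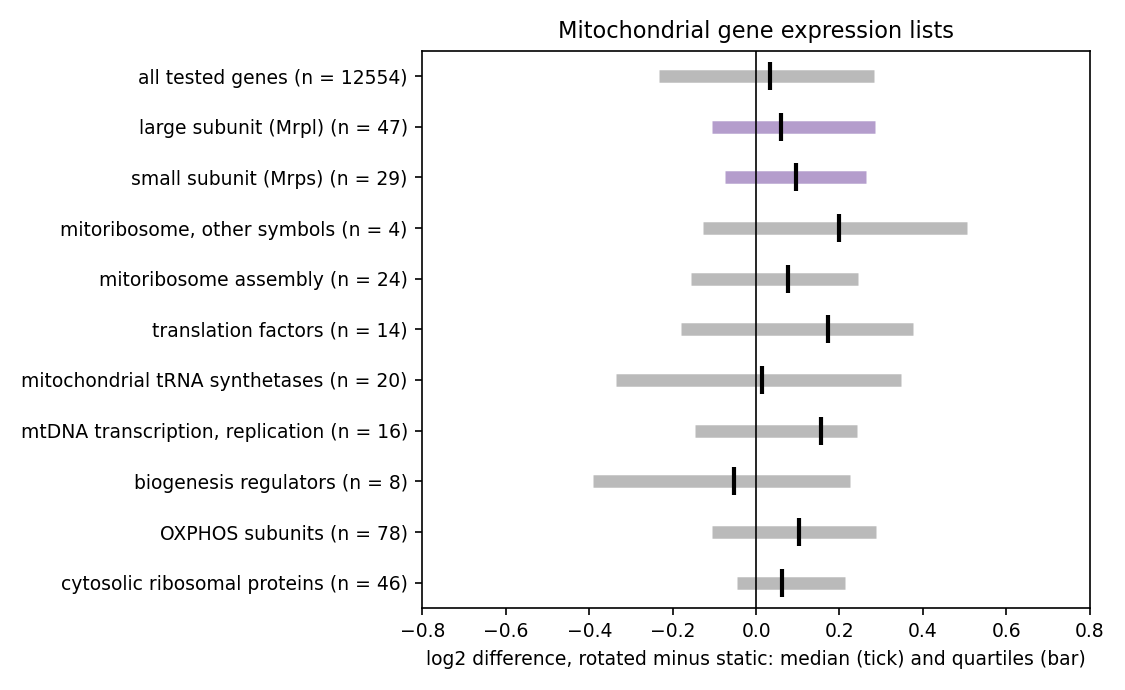
Median (tick) and quartiles (bar) of the log2 difference, rotated minus static, over the tested genes of each list, with the number of genes; the large and small subunit genes are in purple. All medians lie between -0.05 and 0.20, beside 0.03 for all tested genes.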

How the data were processed

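Per the labels, each sample is 1 array; the deposited values are intensity on a linear scale. The authors' values were already scaled: trimmed by 2% at both ends, each deposited array averages 500.0. Which software summarised the probes is not given in the sources used here, and no detection calls entered. After adding 16.6, the 20th percentile of all values, log2 was taken and arrays were quantile normalized, because their medians differed by 85.9%. Tests left out 64 control probe sets and those whose mean was below the 40th percentile (log2 5.96); 27022 remained, and 12 member probe sets but 0 member genes were lost. For values per gene, the brightest probe set stood for the gene. Symbols are those of the platform's probe table; promoters come from RefSeq (GRCm38.p6).

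Two-sided comparisons used limma 3.58.1 (R 4.3.3) with a trended prior variance, and Benjamini-Hochberg adjustment ran over all tested probe sets. SE is limma's moderated standard error. The code was tested on simulated data. Members and lists were chosen with earlier results of these data known, so no list was tested. The rule for naming genes took the 12 members of smallest p per direction, members picked by role, members whose probe sets differ in sign, and at most 4 genes per other list. Divergent partners, Slc5a3, Mrps15, Mrps36, Mrpl14, Dap3, Tfam and others outside that rule were named after their values were seen.

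Sample numbers in the titles may pair the samples, though the labels give the number no meaning. Deviations from the group mean correlated at 0.196, 0.313 and 0.334 between same-numbered samples, and at -0.19 to -0.09 between others. Deviations cancel within a group, so positive values between same-numbered samples make the others negative on the whole. The negative values are thus no separate sign of pairing. Alternatives covered scaling, offset, filter, variance prior, array weights, the replicate block, averaged probe sets, and omission of 1 sample or of both numbered 1.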

Additional observations from a re-analysis of the deposited data

How the results depend on the processing

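No member probe set passed the adjusted test under any alternative run, including the replicate block and array weights, although over all probe sets 2 passed with the replicate block and 22 with array weights. The count of member probe sets higher at an unadjusted p under 0.05 was 6 in the fit reported. It was 3 with the stricter filter (4.80% of all probe sets), 13 with the replicate block (7.29%) and 20 with array weights (10.1%). When 1 sample was left out it was 4 to 11, with 4 without rotated 1 (1.87%) and 11 without rotated 3 (5.96%). The count lower, 0 in that fit, was 2 with no filter (3.45% of all probe sets). It was 2 with the replicate block (7.35%) and 1 with array weights (8.91%). When 1 sample was left out it was 0 to 3, with 3 without rotated 3 (6.49% of all probe sets). The weights were 0.35, 1.01 and 3.32 for the static samples and 0.41, 2.55 and 0.81 for the rotated samples, so static 3 and rotated 2 carry most of that fit.

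The median difference over the members, 0.06, was 0.20 with median centring, 0.14 with array weights, 0.12 when probe sets were averaged and 0.11 when both samples numbered 1 were omitted, and 0.079 to 0.11 when 1 sample was left out. Median centring moved the median of all genes from 0.03 to 0.13, and put 59 of 76 members higher against 62.4% of all genes. For the large subunit genes the median was 0.20 with median centring, 0.18 with array weights and 0.15 without both samples numbered 1, and 0.068 to 0.097 when 1 sample was left out. For the small subunit genes it was 0.20 with median centring, 0.17 with averaged probe sets and 0.083 to 0.15 when 1 sample was left out. All these medians stayed above 0.

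Of 49 named genes, 31 kept their sign under all alternatives run. Of the 30 whose difference exceeded its own standard error, 3 changed sign: Mrps10 to 0.64 and Mrpl44 to -0.089 with averaged probe sets, and Mrps28 (-0.26) to 0.037 with array weights and to 0.038 without both samples numbered 1. The causes were not tested. The replicate block changed no call of a member. With 3 arrays per group the number of arrays limits the precision, and the filter on dim probe sets left 12 member probe sets untested.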

Other observations

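The 12 member probe sets under the filter on dim probe sets belong to 12 genes that each had a brighter probe set. Among them the probe set of Mrps5 read 6.37, 6.38 and 6.34 in the static samples and 5.13, 5.20 and 5.28 in the rotated samples. Its mean over the 6 arrays was 5.78, under the threshold of 5.96, so it was not tested. The brightest probe set of Mrps5 read 9.42, 9.02 and 8.95 against 9.02, 8.98 and 8.87 (log2 difference -0.18 ± 0.24, SE). The dim probe set of Mrps31 ran from 5.30 to 6.55 in static and from 4.83 to 5.57 in rotated samples, so its groups overlapped. Both were chosen after their values were seen.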
